A study of Mus musculus with 6 samples.

Results

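The genes described here are the potassium channel genes of the mouse, taken as every protein-coding gene whose symbol begins with Kcn. There were 94 such genes among the 46078 genes counted, of which 21596 were protein coding. They were sorted by their established families into 40 voltage-gated genes (*Kcna* to *Kcnd*, *Kcnf* to *Kcnh*, *Kcnq*, *Kcns*, and *Kcnv*), 15 inward rectifiers (*Kcnj*), 14 two-pore genes (*Kcnk*), 8 calcium-activated genes and their sodium-activated relatives (*Kcnma*, *Kcnn*, *Kcnt*, and *Kcnu*), and 17 auxiliary genes (*Kcnab*, *Kcne*, *Kcnip*, *Kcnmb*, and *Kcnrg*). The study asked how transcription differs between a chronic stroke infarct and the matching cortex of the uninjured hemisphere. RNA was sequenced from 3 infarcts and from 3 pieces of contralateral cortex of wild-type C57BL/6J mice, labeled as 3 months of age and collected 7 weeks after stroke. Per the study's methods the mice were male and stroke was induced by occluding the distal middle cerebral artery and adding hypoxia. Both regions therefore came from animals with a stroke, and no tissue from animals without stroke entered the comparison. The labels do not say which infarct and which cortex came from the same mouse, so *p* values describe the spread between these tissue samples.

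Potassium channels let potassium leave or enter the cell along its gradient and so set the resting potential and end each action potential. In the cortex, voltage-gated, G protein-gated, and calcium-activated channels shape the firing of neurons, while Kir4.1 of astrocytes takes up the potassium that firing neurons release. Other members are known from immune cells, where potassium efflux keeps the membrane negative during calcium entry, and from the muscle cells of vessels.

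The libraries held 12146959 to 13427057 counts on genes in infarcts and 11943570 to 19933962 in contralateral cortices. Infarct 3 was the infarct closest to the contralateral libraries, with Pearson's *r* of 0.774 to 0.784 across genes on log2 CPM (counts scaled to the size of the library) against 0.666 to 0.723 for the other infarcts. The summed level of neuron markers, all of which had counts in every library, was 10251 to 11152 CPM in contralateral cortices and 740 to 1977 CPM in infarcts, and all 11 were downregulated in infarcts. In infarcts 10 of 11 microglia and macrophage markers, 7 of 7 T cell markers, 6 of 6 B and plasma cell markers, and 6 of 6 fibroblast markers were upregulated. These are bulk tissue samples, so fewer cells of a type and less RNA per cell cannot be told apart.

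Most potassium channel genes had lower expression in the infarct, and a small set had higher expression. Of the 94 members, 79 had enough counts to be tested with edgeR's quasi-likelihood test. At an adjusted *p* under 0.05 and a log2 fold change beyond 1, 10 members were upregulated and 57 were downregulated. Of all 15554 genes tested, 25.7% were upregulated and 20.9% were downregulated. A member can pass the filter through 1 region alone, so counts and medians over the tested members are a description. The median log2 fold change was -2.40 over the 79 members and 0.03 over all tested genes. The libraries of the 2 regions did not overlap for 73 members, with 11 higher and 62 lower in every infarct, where 37.6% of all tested genes were higher and 34.7% lower in every infarct. With DESeq2 10 of 84 tested members were upregulated and 57 downregulated, against 22.0% and 17.6% of all genes with that tool. With no fold threshold, edgeR called 11 members higher and 61 lower, against 34.2% and 30.8% of all genes. Without infarct 3, 9 of 80 tested members were upregulated and 60 downregulated, where 4174 of all genes were upregulated and 3608 downregulated.

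The 15 members that did not pass the filter on low counts were *Kcna5*, *Kcna7*, *Kcna10*, *Kcnh8*, *Kcnv2*, *Kcnj1*, *Kcnj5*, *Kcnj14*, *Kcnk7*, *Kcnk15*, *Kcnk16*, *Kcnk18*, *Kcne1*, *Kcne2*, and *Kcnmb3*. Among all 94 members, 7 had 3 counts or fewer in every library. At these depths a difference in them was not detectable. The 12 members that were tested and not called included *Kcna6*, *Kcnd1*, *Kcng2*, *Kcnq1*, *Kcns1*, *Kcnj2*, *Kcnj10*, *Kcnj13*, *Kcnk10*, *Kcnn3*, and *Kcnrg*.

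By class, counts in each direction were as follows. No voltage-gated member was upregulated and 29 of 35 tested were downregulated, with a median log2 fold change of -2.69. Among inward rectifiers 2 of 12 were upregulated and 7 downregulated (median -2.10). Among two-pore members 3 of 10 were upregulated and 6 downregulated (median -1.60). The calcium-activated class had 1 of 8 upregulated and 6 downregulated (median -1.84). Among auxiliary members 4 of 14 were upregulated and 9 downregulated (median -1.77). Upregulated shares in this order of classes were 0%, 16.7%, 30%, 12.5%, and 28.6%, against 25.7% of all tested genes. The two-pore and auxiliary shares thus lay near that of all genes. Downregulated shares were 82.9%, 58.3%, 60%, 75%, and 64.3%, against 20.9% of all tested genes. Differences between the classes were not tested.

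**Figure D1:**
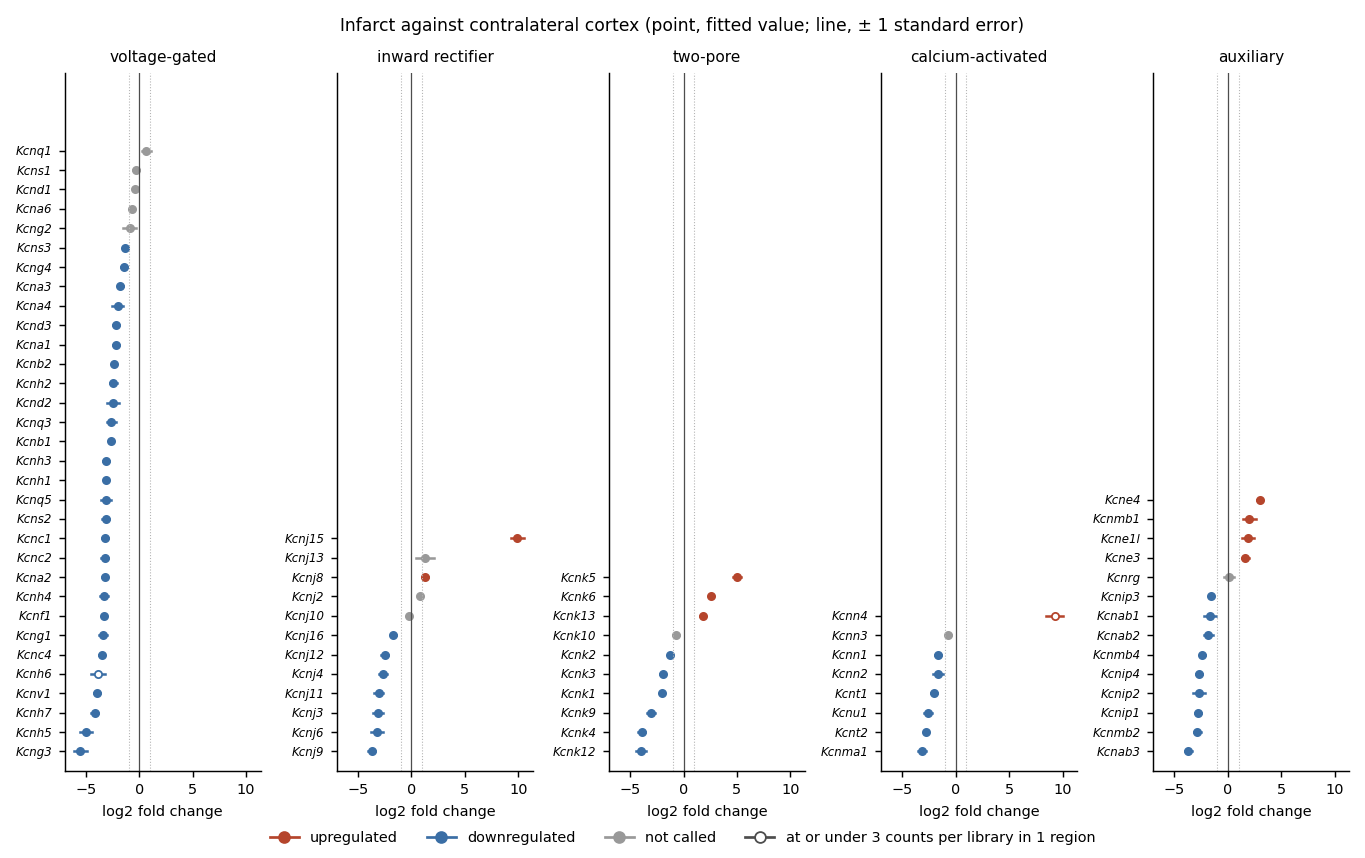
Log2 fold change of infarct against contralateral cortex (horizontal axis) for the tested potassium channel genes that are reported by name, 1 panel per class, with points for fitted values, lines for ± 1 standard error, and dotted lines at the threshold of 1 in each direction. The voltage-gated members lie at or left of 0.67, whereas each of the other classes has members right of the threshold, and open points mark *Kcnn4* and *Kcnh6*, whose fitted values rest on 3 counts or fewer per library in 1 region.

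The inward rectifiers held the member with the largest fitted rise. *Kcnj15*, which encodes Kir4.2, a channel known from kidney and other epithelia, had 265, 477, and 267 CPM in the 3 infarcts and 0.209, 0.0651, and 0.923 CPM in the 3 contralateral cortices. Every infarct stood far above the contralateral cortex with the most expression, and the contralateral values rest on 4, 1, and 10 counts. The means were 336 ± 122 and 0.399 ± 0.459 CPM (SD, n = 3 each), a log2 fold change of 9.91 ± 0.63 (SE) with an adjusted *p* of 7.65e-06 (from edgeR's quasi-likelihood test, adjusted by the Benjamini-Hochberg method), which placed it 33rd by log2 fold change among all 15554 tested genes. Without contralateral library 3 the value was 11.11. The gene spans chr16:95257558-95300260 on the plus strand of GRCm38, and its nearest family neighbor is *Kcnj6*, which encodes the G protein-gated GIRK2 of neurons and lies 259857 bases away. *Kcnj6* had 1.83, 1.32, and 7.23 CPM in infarcts against 29.4, 35.6, and 33.4 CPM contralaterally, so the neighbors went opposite ways, *Kcnj6* with a log2 fold change of -3.22 ± 0.58 (adjusted *p* = 0.00198). Their promoters are shown because the neighbors had opposite calls, as 250 bases before and 50 bases after the start of the RefSeq transcript on GRCm38.p6, written 5′ to 3′ on the strand of the gene, with CG pairs in capitals. The window of *Kcnj15*, at chr16:95257308-95257607 on the plus strand, held 2 CG pairs, and the most upstream of 2 windows of *Kcnj6*, at chr16:94997647-94997946 on the minus strand, held 30.
*Kcnj15*: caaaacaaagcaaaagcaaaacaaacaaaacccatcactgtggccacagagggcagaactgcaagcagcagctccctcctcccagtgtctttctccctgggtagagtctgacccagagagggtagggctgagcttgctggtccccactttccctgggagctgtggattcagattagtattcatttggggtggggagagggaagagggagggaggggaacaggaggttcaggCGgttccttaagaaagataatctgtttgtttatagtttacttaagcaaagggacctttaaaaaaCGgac
*Kcnj6*: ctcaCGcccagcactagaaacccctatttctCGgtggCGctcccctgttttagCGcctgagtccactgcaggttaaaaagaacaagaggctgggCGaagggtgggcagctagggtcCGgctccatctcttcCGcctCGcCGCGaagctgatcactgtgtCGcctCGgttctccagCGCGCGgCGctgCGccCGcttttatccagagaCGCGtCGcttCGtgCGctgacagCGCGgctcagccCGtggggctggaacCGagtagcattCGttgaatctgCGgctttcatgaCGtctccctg

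*Kcnj8*, which encodes the Kir6.1 pore of ATP-sensitive channels in pericytes and vascular smooth muscle, was the other upregulated inward rectifier. It had 7.73, 6.98, and 5.32 CPM in infarcts against 3.13, 2.54, and 2.68 CPM contralaterally, with no overlap. The log2 fold change was 1.25 ± 0.26 (adjusted *p* = 0.00188), and the difference did not pass a test against a 2-fold change (adjusted *p* = 0.152, glmTreat of edgeR). Markers of pericytes and smooth muscle moved with it, with 5 of 6 tested upregulated and a summed level of 569 to 813 CPM in infarcts against 241 to 320 CPM contralaterally, and their part in this result was not tested. *Abcc9*, the regulatory subunit that pairs with Kir6.1, had 33.0 ± 6.90 and 28.1 ± 1.42 CPM (log2 fold change 0.23, adjusted *p* = 0.283).

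The glial inward rectifiers did not share 1 direction. *Kcnj10*, which encodes Kir4.1 of astrocytes, had 286, 304, and 407 CPM in infarcts against 337, 437, and 425 CPM contralaterally. The regions overlapped, and the log2 fold change of -0.27 (95% interval -0.68 to 0.15, adjusted *p* = 0.233) did not pass the test. Without infarct 3 it was -0.42 (adjusted *p* = 0.0384), short of the fold threshold, and without infarct 1 it was -0.15. *Kcnj16*, which encodes Kir5.1 and joins Kir4.1 in mixed channels, had 13.4, 17.8, and 26.5 CPM in infarcts against 72.0, 54.7, and 58.7 CPM contralaterally, without overlap, and was downregulated (log2 fold change -1.68 ± 0.25, adjusted *p* = 2.39e-04). The 8 astrocyte markers were also mixed, with 2 upregulated and 1 downregulated. *Kcnj9* lies 11892 bases from *Kcnj10* on chromosome 1 and encodes the neuronal GIRK3. Its log2 fold change was -3.72 ± 0.35 (adjusted *p* = 2.53e-05).

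*Kcnj2*, which encodes Kir2.1 of microglia, macrophages, and many excitable cells, had 67.2, 94.2, and 60.4 CPM in infarcts against 43.7, 37.4, and 42.5 CPM contralaterally. Every infarct was higher, and the log2 fold change of 0.84 ± 0.19 passed the adjusted *p* (0.00293) but not the fold threshold. With libraries scaled by their totals alone it was 1.05. Its neighbor *Kcnj16*, 38196 bases away on chromosome 11, was downregulated as given above.

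The remaining tested inward rectifiers were lower in every infarct, other than *Kcnj13*. *Kcnj3* encodes GIRK1, the common partner of neuronal GIRK channels, and had 23.7, 35.5, and 80.9 CPM in infarcts against 406, 400, and 429 CPM (log2 fold change -3.14, and -3.78 without infarct 3). *Kcnj11*, the Kir6.2 pore of neuronal ATP-sensitive channels, had a log2 fold change of -3.08 and *Kcnj12* (Kir2.2) one of -2.52, with adjusted *p* values of 1.73e-04 and 3.90e-05. *Kcnj4* (Kir2.3) had a log2 fold change of -2.67. *Kcnj13*, the Kir7.1 of choroid plexus, had 3.98, 0.220, and 1.02 CPM in infarcts against 0.731, 0.456, and 0.923 CPM contralaterally, so its log2 fold change of 1.30 (adjusted *p* = 0.211) rested on infarct 1 and was -0.11 without it. Without infarct 2 it was 1.85, with an adjusted *p* of 0.0327. Of the choroid plexus markers 3 of 4 tested were upregulated, and the list summed to 44.4 to 51.0 CPM in infarcts against 6.69 to 7.36 CPM contralaterally. The marker *Ttr*, which had too few counts to be tested, had 0, 3, and 3 counts in infarcts and none in contralateral cortices. The part of these markers in the level of *Kcnj13* was not tested.

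Among the two-pore channels, which carry the background potassium current, 3 members were upregulated. *Kcnk5*, which encodes TASK-2, a channel opened by alkaline pH and known from kidney and lymphocytes, had 17.4, 27.5, and 13.2 CPM in infarcts against 0.679, 0.586, and 0.461 CPM contralaterally. The lowest infarct lay far above the highest contralateral value, and the log2 fold change was 5.02 ± 0.36 (adjusted *p* = 2.27e-06). *Kcnk6*, which encodes TWIK-2, the potassium efflux channel of macrophages, had 39.1, 41.9, and 35.6 CPM in infarcts against 6.16, 6.51, and 6.64 CPM contralaterally. The spread within each region was small beside the gap between them, and the log2 fold change was 2.59 ± 0.17 (adjusted *p* = 1.02e-06). *Kcnk13*, which encodes THIK-1, the background channel of microglia, had 15.8, 11.2, and 12.9 CPM in infarcts against 3.40, 4.17, and 3.88 CPM contralaterally. It too was higher in every infarct, with a log2 fold change of 1.80 ± 0.22 (adjusted *p* = 6.69e-05). The summed microglia and macrophage markers were 6256 to 9846 CPM in infarcts against 294 to 387 CPM contralaterally. Most of the infarct sum came from *Lyz2*, with means of 6449 ± 1628 CPM in infarcts and 18.5 ± 4.86 CPM contralaterally. Of the 11 markers 10 were upregulated, and *P2ry12* was not called (log2 fold change -0.20). The part of these markers in the levels of the 3 channels was not tested. The promoter window of *Kcnk5*, at chr14:20181733-20182032 on the minus strand, is shown beside that of *Kcnj15* because it held 26 CG pairs in capitals where *Kcnj15* held 2.
*Kcnk5*: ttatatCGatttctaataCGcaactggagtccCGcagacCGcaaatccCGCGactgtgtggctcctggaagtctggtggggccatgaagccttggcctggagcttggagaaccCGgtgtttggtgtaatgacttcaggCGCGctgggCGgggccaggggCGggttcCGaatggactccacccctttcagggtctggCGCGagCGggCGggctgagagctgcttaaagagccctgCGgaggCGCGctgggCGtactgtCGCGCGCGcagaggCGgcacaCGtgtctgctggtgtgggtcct

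The other tested two-pore members fell or were not called. *Kcnk1*, which encodes TWIK-1 of neurons and astrocytes, had 36.1, 37.4, and 41.0 CPM in infarcts against 122, 170, and 157 CPM contralaterally, and was downregulated (log2 fold change -1.97 ± 0.16, adjusted *p* = 5.23e-06). *Kcnk2* (TREK-1), a stretch-sensitive channel, had a log2 fold change of -1.26 that did not pass the test against a 2-fold change (adjusted *p* = 0.0550, glmTreat of edgeR). *Kcnk4* (TRAAK), *Kcnk9* (TASK-3), *Kcnk3* (TASK-1), and *Kcnk12* (THIK-2) had log2 fold changes of -3.91, -3.09, -1.94, and -3.98. *Kcnk12* and *Kcnk13* encode the THIK channels and had opposite signs, with *Kcnk12* at 0.159, 0.147, and 0.614 CPM in infarcts against 4.18, 5.86, and 5.26 CPM contralaterally. *Kcnk10* (TREK-2) had a log2 fold change of -0.73 (adjusted *p* = 0.0449), short of the fold threshold.

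In the calcium-activated class the intermediate-conductance channel rose and the others did not. *Kcnn4*, which encodes KCa3.1 of lymphocytes, macrophages, and red blood cells, had 86, 65, and 62 counts in infarcts, or 6.85, 4.77, and 4.23 CPM, and no counts in any contralateral cortex. Set against a floor of 3 counts per library, the infarct level was at least 25.2-fold higher (adjusted *p* = 2.28e-05), a bound that ran from 21.5- to 30.02-fold with 1 library left out. The T cell markers, among them *Cd3e*, summed to 41.4 to 162 CPM in infarcts against 2.56 to 3.78 CPM contralaterally. B and plasma cell markers summed to 254 to 2266 CPM in infarcts against 1.41 to 3.88 CPM contralaterally. Microglia and macrophage markers summed to 6256 to 9846 CPM in infarcts against 294 to 387 CPM contralaterally. The part of these markers in the level of *Kcnn4* was not tested. *Kcnn4* spans chr7:24370263-24386690 on the plus strand, and its promoter window at chr7:24370013-24370312 is shown as that of a member without counts in the contralateral cortex, with its 6 CG pairs in capitals.
*Kcnn4*: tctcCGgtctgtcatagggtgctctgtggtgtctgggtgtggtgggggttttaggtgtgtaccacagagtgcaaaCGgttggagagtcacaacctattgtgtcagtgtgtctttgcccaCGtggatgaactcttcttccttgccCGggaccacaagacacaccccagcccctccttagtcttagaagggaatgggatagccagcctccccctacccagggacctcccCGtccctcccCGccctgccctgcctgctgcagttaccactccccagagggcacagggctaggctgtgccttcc

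The small-conductance relatives of *Kcnn4*, which follow action potentials in neurons with a slow potassium current, behaved otherwise. *Kcnn1* and *Kcnn2* were downregulated with log2 fold changes of -1.65 and -1.66 (adjusted *p* of 0.00103 and 0.0146). *Kcnn3* had 22.5, 36.2, and 45.9 CPM in infarcts against 58.5, 55.3, and 53.9 CPM contralaterally, lower in every infarct but short of the fold threshold (log2 fold change -0.68, adjusted *p* = 0.0276). *Kcnma1*, the pore of the large-conductance BK channel, had 21.7, 16.0, and 47.9 CPM in infarcts against 262, 243, and 271 CPM contralaterally. It was downregulated with a log2 fold change of -3.18 ± 0.40 (adjusted *p* = 2.71e-04), and the value was -3.76 without infarct 3. The sodium-activated *Kcnt1* and *Kcnt2* had log2 fold changes of -2.02 and -2.77, the latter with an adjusted *p* of 4.31e-07, and *Kcnu1*, known from sperm, had 3.54 ± 0.830 CPM in contralateral cortices and a log2 fold change of -2.57.

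Among the tested auxiliary genes the *Kcne*, *Kcnip*, and *Kcnab* subfamilies each went 1 way, whereas *Kcnmb* was mixed. The *Kcne* genes encode small single-pass subunits that change the gating of voltage-gated channels. All 3 *Kcne* genes that were tested were upregulated, where 25.7% of all tested genes were. *Kcne4*, whose product dampens several such channels, had 17.7, 12.4, and 16.1 CPM in infarcts against 1.72, 2.08, and 2.03 CPM contralaterally (log2 fold change 2.99 ± 0.24, adjusted *p* = 4.01e-06). The lowest infarct was several times the highest contralateral value. *Kcne3*, known as a partner of *Kcnq1* in epithelia, had 4.14, 2.94, and 3.41 CPM in infarcts against 1.15, 1.37, and 0.831 CPM contralaterally (log2 fold change 1.62 ± 0.34, adjusted *p* = 0.00210). *Kcnq1* itself had 1.43, 1.03, and 1.09 CPM in infarcts against 0.522, 0.586, and 1.20 CPM contralaterally, and the regions overlapped (log2 fold change 0.67, adjusted *p* = 0.226). *Kcne1l*, also known as *Kcne5*, had 0.956, 1.76, and 3.00 CPM in infarcts against 0.418, 0.326, and 0.923 CPM contralaterally. Its log2 fold change was 1.85 ± 0.57 (adjusted *p* = 0.0162), and the call was lost without infarct 3 (1.37, adjusted *p* = 0.0656), without contralateral library 1 (1.65, adjusted *p* = 0.0735), without contralateral library 2 (1.57, adjusted *p* = 0.0753), and against a 2-fold change (adjusted *p* = 0.0836, glmTreat of edgeR).

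The β subunits of the BK channel also differed among themselves. *Kcnmb1*, the β1 subunit of smooth muscle, had 1.83, 1.03, and 2.53 CPM in infarcts against 0.209, 0.846, and 0.277 CPM contralaterally. Every infarct was higher by a margin that was small for infarct 2 against contralateral library 2, and the log2 fold change was 2.0 ± 0.59 (adjusted *p* = 0.0139). The call was lost without contralateral library 1 (1.59, adjusted *p* = 0.0657), without contralateral library 3 (1.79, adjusted *p* = 0.0561), and against a 2-fold change (adjusted *p* = 0.0665, glmTreat of edgeR), and the value was 2.87 without contralateral library 2. *Kcnmb4*, the β4 subunit of neurons, had 3.58, 5.43, and 4.78 CPM in infarcts against 24.1, 18.9, and 30.2 CPM contralaterally and was downregulated (log2 fold change -2.40 ± 0.24, adjusted *p* = 2.00e-05). *Kcnmb2* had a log2 fold change of -2.86. *Kcnmb1* lies within the span of *Kcnip1* on chromosome 11, on the other strand and with no shared exon base, and *Kcnip1* was downregulated (log2 fold change -2.78 ± 0.28, adjusted *p* = 1.98e-05).

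All 4 *Kcnip* genes, whose products are calcium-binding partners of Kv4 channels, and all 3 *Kcnab* genes, whose products are cytoplasmic β subunits of Kv1 channels, were downregulated. Of all tested genes 20.9% were downregulated. *Kcnab3* fell by 3.70 and *Kcnip3* by 1.62 on the log2 scale. *Kcnab2*, a β subunit also found in immune cells, had 40.0, 39.1, and 114 CPM in infarcts against 220, 216, and 257 CPM contralaterally. Infarct 3 stood apart from the others, and the log2 fold change of -1.84 (adjusted *p* = 0.00721) was -2.53 without that library and missed the threshold when no filter on low counts was used (adjusted *p* = 0.0584). *Kcnrg*, whose product limits the assembly of voltage-gated channels, had a log2 fold change of 0.09 (adjusted *p* = 0.863).

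**Figure D2:**
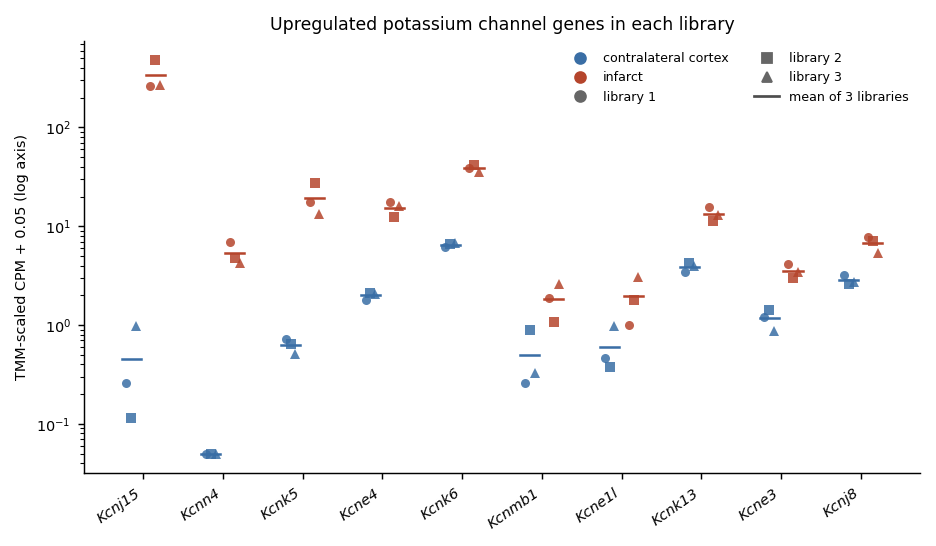
TMM-scaled CPM plus 0.05 on a log axis for the 10 upregulated potassium channel genes in each of the 3 infarcts and 3 contralateral cortices, ordered by log2 fold change, with horizontal lines for the mean of 3 libraries. All 10 genes are higher in every infarct, *Kcnj15* reaches 477 CPM, *Kcnn4* is at 0 in all contralateral cortices, and the margin is smallest for *Kcnmb1* and *Kcne1l*.

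The voltage-gated genes formed the largest class, with 29 of 35 tested members downregulated and 6 not called. All 7 tested *Kcnh* genes and both *Kcnb* genes were downregulated, as were 4 of 5 tested *Kcna* genes, 3 of 4 *Kcng* genes, 2 of 3 *Kcnd* genes, 2 of 3 *Kcns* genes, *Kcnf1*, and *Kcnv1*. The smallest *p* values belonged to *Kcnf1*, a silent subunit that modifies Kv2 channels, *Kcnb2* (Kv2.2), and *Kcnc4* (Kv3.4), with log2 fold changes of -3.32, -2.32, and -3.53 and adjusted *p* values of 4.53e-07, 6.52e-07, and 7.82e-07. *Kcnf1* had 9.0, 12.5, and 13.4 CPM in infarcts against 117, 116, and 117 CPM contralaterally. The contralateral values were nearly equal, and every infarct was far below them.

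The axonal channels *Kcna1* (Kv1.1) and *Kcna2* (Kv1.2) were the most abundant members per kilobase of exon in contralateral cortices. *Kcna1* had 80.8, 125, and 161 CPM in infarcts against 475, 650, and 556 CPM contralaterally (log2 fold change -2.20 ± 0.26, adjusted *p* = 5.36e-05). *Kcna2* had 91.5, 98.8, and 163 CPM in infarcts against 1048, 1261, and 1016 CPM contralaterally (log2 fold change -3.23 ± 0.25, adjusted *p* = 3.77e-06). Both were lowest in infarct 1 and highest in infarct 3. *Kcna6* (Kv1.6), 61945 bases from *Kcna1* on chromosome 6, had 72.8, 83.3, and 115 CPM in infarcts against 141, 144, and 137 CPM contralaterally. It was lower in every infarct and passed the adjusted *p* (0.0102) but not the fold threshold (log2 fold change -0.64). Of its exon bases 39.6% lie under *Gm26673* on the other strand, and the strand setting of the counting is not given in the sources used here.

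*Kcna3*, which encodes Kv1.3 of T cells and microglia, had 2.87, 2.28, and 2.39 CPM in infarcts against 8.31, 8.01, and 9.32 CPM contralaterally. The regions did not overlap, and it was downregulated (log2 fold change -1.76 ± 0.23, adjusted *p* = 1.11e-04) in tissue where all 7 T cell markers were upregulated. *Kcna5* (Kv1.5), known from vascular muscle, had 0.319 to 0.887 CPM in infarcts against 0.391 to 0.836 CPM contralaterally and was not tested.

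The channels that set the threshold and rate of firing fell as well. *Kcnq3*, which encodes a subunit of the M-current channel, had 80.1, 98.2, and 239 CPM in infarcts against 790, 912, and 872 CPM contralaterally. It was highest in infarct 3 and far below the contralateral values in every infarct (log2 fold change -2.62 ± 0.41, adjusted *p* = 7.78e-04), and *Kcnq5* had a log2 fold change of -3.13. *Kcnc1* and *Kcnc2*, the Kv3.1 and Kv3.2 of fast-spiking interneurons, had log2 fold changes of -3.20 and -3.23, and *Kcnd2*, the Kv4.2 of dendrites, -2.43. *Kcnd1* (-0.38), *Kcng2* (-0.90), and *Kcns1* (-0.30) did not pass the test, with adjusted *p* values of 0.0762, 0.235, and 0.325.

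The lowest fitted values of all members were in this class. *Kcng3*, a silent subunit, had 0.0797, 0, and 0.273 CPM in infarcts against 7.94, 5.73, and 4.06 CPM contralaterally (log2 fold change -5.51 ± 0.62). *Kcnh5* and *Kcnh7*, of the EAG and ERG families, had log2 fold changes of -4.97 and -4.17. *Kcnh7* was abundant in contralateral cortices at 439 ± 60.2 CPM and had 24.4 ± 10.7 CPM in infarcts. *Kcnh6* had 0, 3, and 2 counts in infarcts and was at least 8.38-fold lower there against a floor of 3 counts per library.

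Levels were then compared between genes per kilobase of exon, which gives the make-up of the pore-forming pool in each library. The summed level of the 77 pore-forming members was 334 ± 69.5 CPM per kb in infarcts and 1138 ± 70.4 CPM per kb in contralateral cortices. Voltage-gated genes made up 33.5%, 33.8%, and 45.6% of that sum in infarcts and 68.0%, 69.3%, and 68.8% in contralateral cortices. Inward rectifiers made up 47.1%, 49.9%, and 39.8% in infarcts and 19.8%, 18.1%, and 19.1% in contralateral cortices. Inward rectifiers thus had the highest share of any class in infarcts 1 and 2, and voltage-gated genes had it in infarct 3 and in every contralateral cortex. Two-pore genes made up 13.2% ± 2.67 in infarcts and 8.02% ± 0.511 in contralateral cortices, and calcium-activated genes 3.55% ± 0.428 and 4.26% ± 0.414. The regions did not overlap for the first 3 classes and overlapped for the last, and an exact permutation test of 3 against 3 libraries cannot give a two-sided *p* below 0.1. Every class had a lower mean summed level in infarcts. Voltage-gated genes summed to 129 ± 49.3 CPM per kb in infarcts against 782 ± 54.9 contralaterally. Inward rectifiers summed to 151 ± 23.6 against 216 ± 7.90, and two-pore genes to 42.9 ± 1.49 against 91.5 ± 11.2. The higher shares of inward rectifiers and two-pore genes thus went with lower sums.

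Within the pool the order of genes changed. *Kcnj10* was the most abundant pore-forming member in infarcts at 18.5% ± 1.74 of the summed CPM per kb, followed by *Kcnj15* at 16.3% ± 5.94, and these neighbors in the order differed by less than the spread of *Kcnj15*. In contralateral cortices *Kcnj10* ranked 5th at 6.48% and *Kcnj15* ranked 69th at 0.00548%. *Kcna1* led in contralateral cortices with 10.3% ± 1.11 and ranked 3rd in infarcts with 7.52% ± 1.0. *Kcnj2* moved from rank 31 to rank 6, and *Kcnk6* from rank 53 to rank 8. The level of *Kcnj10* itself was 61.4 CPM per kb in infarcts and 73.9 CPM per kb in contralateral cortices, so its higher share went with a smaller sum.

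**Figure D3:**
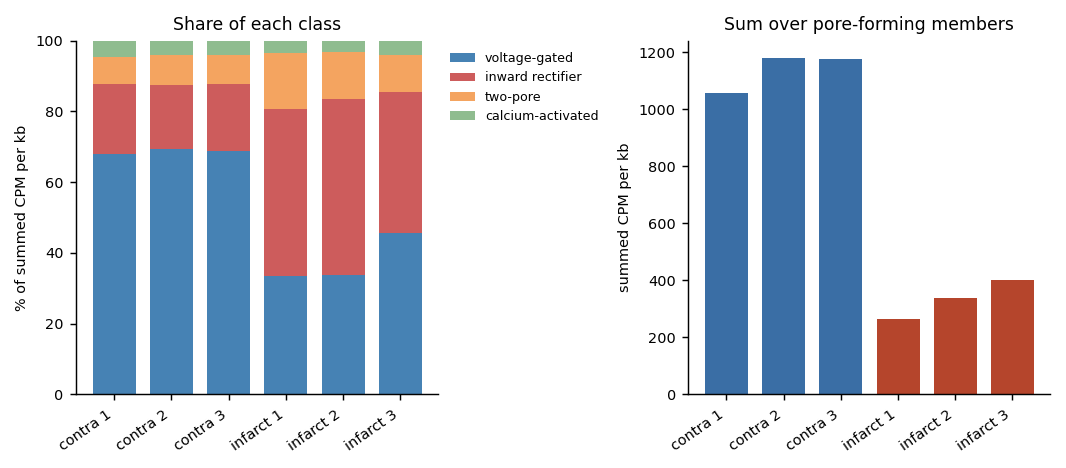
Left, share in percent of the summed CPM per kb of exon taken by each pore-forming class in the 6 libraries, and right, the sum itself in CPM per kb, with 1 bar per library. Inward rectifiers make up 39.8% to 49.9% in infarcts and 18.1% to 19.8% in contralateral cortices, while the infarct sums run from 263 to 402 and the contralateral sums from 1057 to 1182.

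The downregulated members did not fall equally in the 3 infarcts. Of the 57, 41 were highest in infarct 3 and 36 were lowest in infarct 1. Their median level was 8.98% of the contralateral mean in infarct 1, 13.4% in infarct 2, and 18.5% in infarct 3, and the median ratio of infarct 3 to infarct 1 was 2.10. The summed neuron markers stood at 7.00%, 10.2%, and 18.7% of the contralateral mean in the same libraries, and their part in the order of the infarcts was not tested. The 10 upregulated members had no common order, with 5 highest in infarct 1, 3 in infarct 2, and 2 in infarct 3.

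**Figure D4:**
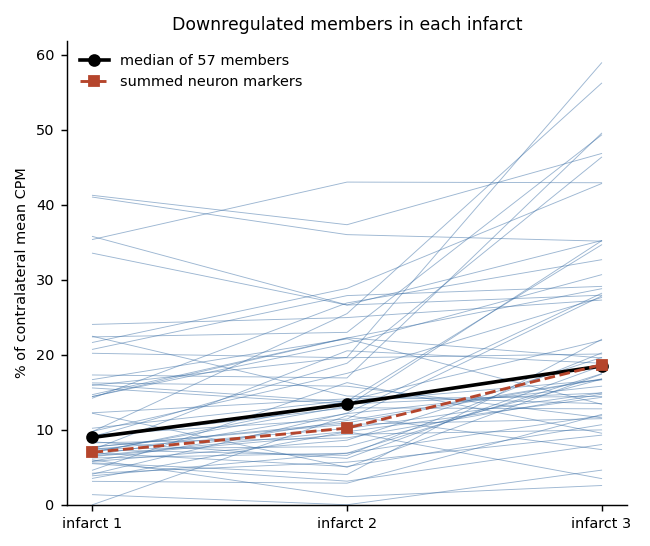
CPM in each infarct as a percent of the contralateral mean for the 57 downregulated potassium channel genes (thin lines, each linking the values of 1 gene and not an order of the samples), with their median (circles) and the summed neuron markers (squares). The median is 8.98%, 13.4%, and 18.5% in infarcts 1, 2, and 3, and the neuron markers are at 7.00%, 10.2%, and 18.7%.

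Promoter windows were found in the RefSeq table for 69 of the 94 members, including 9 of the 10 upregulated and 40 of the 57 downregulated. For each member the most upstream 300-base window was used. The median number of CG pairs per window was 9 in the upregulated, 17 in the downregulated, and 10 in all 69 members, with a median GC content of 52.7%, 62.7%, and 58.3%. Over all 32851 windows of the table, which belong to 27025 genes, the medians were 7 and 52.7%. Among the upregulated windows printed above the number ran from 2 in *Kcnj15* to 26 in *Kcnk5*. The letters GAGGAA, a core bound by the myeloid factor PU.1, were present on either strand in 2 of the 9 upregulated windows, or 22.2%, in 27.5% of the downregulated, and in 28.3% of all windows. TGACTCA, the AP-1 site, was in none of the 9, in 2.5% of the downregulated, and in 5.20% of all windows. Neither string was in the 4 windows printed above, which says only that these letters are not there.

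Other genes of potassium handling were taken from a list of 33 sodium pump subunits, cation-chloride cotransporters, and channel partners, of which 28 were tested, 7 were upregulated (25.0%, against 25.7% of all tested genes), and 13 were downregulated (46.4%, against 20.9% of all tested genes). The list's median log2 fold change was -0.80. Of the genes whose proteins join potassium channels in complexes, 9 of 12 tested, or 75%, were downregulated and none was upregulated. These included *Dpp10* and *Dpp6*, which join Kv4 channels (log2 fold change -3.54 and -2.41), *Abcc8*, the SUR1 partner of Kir6.2 (-3.05), *Cntnap2*, which gathers Kv1 channels along the axon (-2.83), and *Lgi1* (-2.72). *Abcc9* (0.23), *Cntn2* (-0.29), and *Lrrc38* (0.24) were not called. Whether partners change with their channels was not tested.

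The sodium pump, which restores the potassium gradient, was split. The regulatory *Fxyd5* (3.46) and *Fxyd1* (2.66) and the β subunit *Atp1b3* (1.51) were upregulated, and *Atp1b1* (-2.12) and *Fxyd7* (-1.21) were downregulated. Among cotransporters 4 of 6, or 66.7%, were upregulated, namely *Slc12a1* (3.99), *Slc12a7* (3.28), *Slc12a4* (1.68), and *Slc12a2* (1.06). The value of *Slc12a1* (SE 0.82) rests on 27, 42, and 18 counts in infarcts against 6, 0, and 0 contralaterally. *Slc12a5*, which encodes the neuronal potassium-chloride exporter KCC2, had 50.2 ± 32.8 CPM in infarcts against 479 ± 14.0 CPM contralaterally and was downregulated (-3.25, adjusted *p* = 4.60e-04). Each adjusted *p* is from edgeR's quasi-likelihood test over all tested genes.

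Reads shared with overlapping genes limit a few of these values. Between 12.2% and 49.1% of the exon bases of *Kcna6*, *Kcnj3*, *Kcnj13*, *Kcnk2*, and *Kcnmb4* lie under a gene on the other strand, and 13.1% of those of *Kcnk4* lie under *Catsperz* on the same strand.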

How the data were processed

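The members and gene lists were chosen with earlier results of these data known. Per the study's methods and the labels, stranded mRNA libraries were made from RNA of integrity above 8, trimmed with Trimmomatic 0.32, aligned to GRCm38 with STAR 2.5.2b, and counted with HTSeq. The deposited values are the authors' raw counts per Ensembl gene, without normalization. The annotation and strand setting of the counting are not given in the sources used here. The 5 entries per library that name no gene were left out, and 65.7% to 73.4% of tallied reads fell on genes, which is the depth given in the text.

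Symbols, classes of gene, and exon lengths came from GENCODE M21, where 45229 identifiers were found and 849 were not. Counts were fitted in R 4.3.3 with edgeR 4.0.16 (filterByExpr, TMM, glmQLFit with robust dispersions, glmQLFTest, no covariates). The biological coefficient of variation was 0.220. Adjusted *p* values are Benjamini-Hochberg values of edgeR over all 15554 tested genes, CPM are TMM scaled, and SE are those of the fitted coefficients. Alternatives were DESeq2 1.42.0, limma voom 3.58.1, other scalings, filters, and thresholds, the replicate number as a block, and leaving out each library.

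Members were named if upregulated, if among the 3 smallest *p* values of downregulated members or the 2 most abundant per length of their class, if known outside neurons, or if not called. Members named as further examples of a subfamily were chosen after their values were seen. A few genes of the class and partner lists are not reported here by name, though they enter the counts.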

Additional observations from a re-analysis of the deposited data

How the results depend on the processing

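The count of upregulated members was 10 under DESeq2, limma voom, RLE and upper quartile scaling, and with no filter on low counts, 11 with library totals and with no fold threshold, 7 against a 2-fold change (glmTreat), and 4 of 58 tested members where every library had to hold at least 10 counts, a filter that removes genes near 0 in 1 region. The downregulated count, 57, ran from 46 under that filter to 61 with no fold threshold. Tested members numbered 79 in the main fit, 84 with DESeq2, and 93 with no filter. Over all genes the upregulated count was 3999 in the main fit and ran from 2789 under the filter of 10 counts to 5324 with no fold threshold. The downregulated count over all genes was 3256 and ran from 2329 against a 2-fold change to 4787 with no fold threshold. With each library left out in turn, upregulated members numbered 8 to 11 and downregulated members 55 to 60, and upregulated partner genes stayed at 7 and downregulated ones at 12 to 15. In these fits 4028 to 4174 of all genes were upregulated and 3145 to 3608 were downregulated. *Kcnj13*, which was not called, changed sign without infarct 1 (-0.11) and was upregulated without infarct 2 (1.85). Scaling by library totals moved the median over all genes on the log2 scale from 0.03 to 0.23. When not divided by exon length, the class differences were -31.9 points for voltage-gated and 28.8 points for inward rectifier genes, against -31.1 and 26.6 points per kilobase. These shifts were smaller than the SD among infarcts (6.94 and 5.19 points) and larger than that among contralateral cortices (0.648 and 0.824 points). The labels do not say that replicate numbers pair mice, so the numbers were not taken as pairs. The deviations of same-numbered libraries had correlations of -0.19, 0.10, and 0.00, which with 3 libraries per region cannot show whether they share a mouse. With the replicate block 10 members were upregulated in edgeR and DESeq2 and 58 and 59 downregulated. Over all genes these fits called 3945 and 4166 upregulated and 3222 and 3364 downregulated. Changes in genes near 1 CPM are limited by counts of a few reads.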

Other observations

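Genes with a Kcn symbol that do not code for protein were left out of the members, and there were 5, all annotated as antisense. *Kcnq1ot1*, the imprinted transcript antisense to *Kcnq1*, had 271, 301, and 306 counts in infarcts and 782, 672, and 445 in contralateral cortices, or 21.5 ± 0.611 and 41.9 ± 1.62 CPM (SD, n = 3 each). It was lower in every infarct and just short of the fold threshold (log2 fold change -0.96 ± 0.14, adjusted *p* = 2.55e-04, edgeR's quasi-likelihood test). *Kcnmb4os2*, antisense to *Kcnmb4*, had 12, 4, and 1 counts in infarcts and 49, 27, and 27 in contralateral cortices and was downregulated (log2 fold change -2.39 ± 0.64, adjusted *p* = 0.00803), as was *Kcnmb4* itself. Of the exon bases of *Kcnmb4*, 31.5% lie under its antisense genes, where reads of either strand cannot be told apart without the strand setting of the counting, and of those of *Kcnq1* 2.96% lie under *Kcnq1ot1*. *Kcnmb4os1*, *Kcnab3os*, and *Kcnd3os* had too few counts to be tested, with at most 13 in a library.

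Potassium channel genes that are neighbors on a chromosome did not always move together. Neighbors were taken as members less than 1000000 bases apart. *Kcnj6* and *Kcnj15* on chromosome 16 and *Kcnip1* and *Kcnmb1* on chromosome 11 were called in opposite directions. *Kcna2*, *Kcna3*, and *Kcnc4* on chromosome 3 and *Kcnj11* and *Kcnc1* on chromosome 7 were each downregulated, as were 72.2% of all tested members. Every other pair of neighbors had a member that was not called or not tested.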
